A study of Mus musculus with 6 samples.

Results

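The classical complement genes and their regulators described here are C1qa, C1qb, C1qc, C2, C3, C4a, C4b, C4bp and Pros1, the gene of Protein S. Of these 9 genes, 8 had at least 1 transcript in a table of 65535 transcripts that covers 33676 genes, and C1qa had none and is not analysed here. The genes were chosen by their counts in the same comparison of degenerated with control mice, so their differences between the groups are a description of the values that chose them. Whether such a gene passes a threshold is stated in that sense only, with no p. Their 8 rows add up 15 listed transcripts of the 36 that are annotated for the 9 genes, and each value describes that part only.

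The RNA came from the modiolus, the central bone of the cochlea in which the spiral ganglion neurons (SGNs) lie, and was sequenced in 6 libraries of C57BL/6 mice, 3 from a control group and 3 from a degenerated group. By the methods of the study, male mice of 8 weeks in the degenerated group received kanamycin sulfate (1 g/kg, under the skin) and, after 30 min, furosemide (0.4 g/kg, into the abdomen), which together destroy hair cells, and controls received saline. The sequenced degenerated cochleae were taken on day 30. Both groups are of the same strain, for which the labels name no altered allele, and the sources used here do not say whether a library pools animals or whether replicates are separate animals, so the error measures the spread between these 6 samples.

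Complement is a set of plasma proteins that mark and destroy targets. In the classical pathway, C1q binds antibodies, apoptotic cells or debris, its attached proteases cut C4 and C2, and the fragments form an enzyme that cuts C3. C4b-binding protein and other regulators take this enzyme apart. Tissue macrophages are known for making C1q, and the liver for making most of the circulating components. In the developing and injured nervous system, C1q and C3 are known to tag synapses and debris for removal.

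Libraries held 12480876 to 15549319 counts. Values are given as CPM, which are counts scaled to a common library size of 1000000 after TMM normalization, and log2 fold changes (log2FC) are those of edgeR's quasi-likelihood fit, degenerated over control, with their standard errors (SE). A gene met the criteria where its unadjusted p was under 0.01 and its log2FC beyond 0.2 in either direction, which are the criteria of the study for another comparison. The libraries stood apart by their blood and marrow transcripts in a way the groups do not explain. The summed level of 7 listed neutrophil and marrow genes was 245, 12858 and 6367 CPM in control replicates 1, 2 and 3, and 581, 1831 and 4488 CPM in degenerated replicates 1, 2 and 3. Control replicates 2 and 3 and degenerated replicate 3 were thus the libraries rich in marrow transcripts, with 1 such library in the degenerated group against 2 among controls. The labelled cell type, the spiral ganglion neuron, had 13 of 14 markers listed, which summed to 15424, 11984 and 13800 CPM in control and 8299, 10436 and 6963 CPM in degenerated replicates 1, 2 and 3. The degenerated sums were all below the control sums. Of the 13 markers, 2 (Calb2 and Pvalb) met the criteria as lower, as did 0.715% of all genes tested. The log2FC was below 0 in 10 of the 13 and above 0 in 3, so the list was mixed in sign. At an unadjusted p under 0.05 in edgeR's test, 7 of the 13 were lower and 0 higher. Of all 14118 genes tested, 508 were lower and 859 higher at that threshold. Hair cell markers summed to 471 to 671 CPM in control and 165 to 431 CPM in degenerated libraries, also without overlap. The part of fewer neurons and hair cells in the complement values below was not tested. Schwann cell markers summed to 4900 to 9801 CPM and macrophage markers to 1035 to 3165 CPM over all libraries, so the RNA was that of a mixed tissue. In such bulk samples, fewer cells of a type and less RNA per cell cannot be told apart.

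Sequences that bear on the results are shown first. C4b and C4a are neighbouring near-copies on chromosome 17, and reads were counted for both, so it matters how far they differ. The dominant listed transcripts of both genes, C4b-201 (5379 bases) and C4a-207 (5371 bases), aligned over 5367 bases with 207 mismatches, an identity of 96.1%. Of all stretches of 50 bases in C4b-201, 35.2% occur unchanged in C4a-207, and of stretches of 100 bases 16.5% do. Differences are dense in 60 bases of exon 21 of both transcripts (41 exons each, minus strand, GRCm38), where 13 bases differ, in capitals. The stretch is coding sequence of C4b and lies at chr17:34735430-34735489 in C4b and at chr17:34816086-34816145 in C4a.
C4b-201: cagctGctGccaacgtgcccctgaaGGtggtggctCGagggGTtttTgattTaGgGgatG
C4a-207: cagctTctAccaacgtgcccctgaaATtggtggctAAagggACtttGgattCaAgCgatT

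A read that spans this stretch separates the genes, whereas one from the identical stretches can be given to either. The sources used here do not say how the counting treated such reads.

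The 250 bases before the transcription start are shown for 4 genes that were higher together in the degenerated libraries, from the RefSeq table of GRCm38.p6, which holds 5 of the 9 genes. Capitals mark matches, on either strand, to motif letters of factors known from immune genes. These were AGGAAGT (ETS family, PU.1 included), TTCNNNGAA (STAT), TTGCNNAA (C/EBP), TGANTCA (AP-1), GAAA repeated after 2 further bases (interferon regulatory factor), and GGGA, 4 further bases and CC (NF-kB). C1qb lies at chr4:136886201-136886450 and C1qc at chr4:136892915-136893164, both on the minus strand, C4bp at chr1:130661619-130661868 on the minus strand, and Pros1 at chr16:62854057-62854306 on the plus strand.
C1qb: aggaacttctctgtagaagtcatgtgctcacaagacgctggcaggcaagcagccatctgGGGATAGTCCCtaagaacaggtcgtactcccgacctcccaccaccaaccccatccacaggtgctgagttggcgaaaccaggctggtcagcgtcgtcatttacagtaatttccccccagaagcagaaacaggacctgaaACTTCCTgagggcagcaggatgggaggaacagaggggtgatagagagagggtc
C1qc: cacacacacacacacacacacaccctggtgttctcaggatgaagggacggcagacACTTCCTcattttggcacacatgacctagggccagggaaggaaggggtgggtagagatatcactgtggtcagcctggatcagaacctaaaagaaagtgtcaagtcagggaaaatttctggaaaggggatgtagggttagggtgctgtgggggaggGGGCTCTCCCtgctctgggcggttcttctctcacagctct
C4bp: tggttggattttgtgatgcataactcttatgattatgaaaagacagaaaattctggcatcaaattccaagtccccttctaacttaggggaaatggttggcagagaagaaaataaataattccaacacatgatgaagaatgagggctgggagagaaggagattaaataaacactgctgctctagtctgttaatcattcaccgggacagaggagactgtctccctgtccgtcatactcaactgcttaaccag
Pros1: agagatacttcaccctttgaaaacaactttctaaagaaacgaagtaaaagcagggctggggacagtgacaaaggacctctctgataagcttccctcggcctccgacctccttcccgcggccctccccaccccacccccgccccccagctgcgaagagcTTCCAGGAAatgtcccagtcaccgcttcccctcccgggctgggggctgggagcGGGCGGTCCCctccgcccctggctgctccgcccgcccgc

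The ETS letters occurred in C1qb from 53 bases and in C1qc from 195 bases before the start, and 7.69% of all 32851 promoters of this length hold them. The NF-kB letters occurred in C1qb as an overlapping pair from 191 and 190 bases, in C1qc from 40 and in Pros1 from 39 bases before the start, with 17.6% of all promoters holding them. The STAT letters occurred in Pros1 from 92 bases before the start, with a share of 7.02% overall. The C4bp window held none of the 6. The C/EBP, AP-1 and interferon regulatory factor letters, held by 9.56%, 6.75% and 2.98% of all promoters, had no match in these 4 windows. The window of C3, a gene of the set that did not meet the criteria, is not printed. It held the NF-kB letters from 197, 33 and 10 bases and the C/EBP letters from 45 bases before the start. All these matches are a description of letters.

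Of the 8 genes with a row, 6 met the criteria as higher in degenerated libraries and none as lower (C1qb, C1qc, C4a, C4b, C4bp and Pros1). Over all 14118 genes tested, 284 (2.01%) met them as higher and 101 (0.715%) as lower. In those 6 genes every degenerated library lay above every control library, as did 10.3% of all genes tested. The log2FC of all 8 genes was above 0, compared with 49.7% of all genes, and their median was 0.68 beside a median of -0.003 over all genes. C4bp, with 0 counts in the controls, passed the filter only through the degenerated libraries. These counts of genes rest on the comparison by which the genes were listed, and nothing is read from them. After Benjamini-Hochberg adjustment, edgeR left 0 of all genes tested under 0.05 (smallest adjusted p 0.0719), with 1367 (9.68%) at an unadjusted p under 0.05, while DESeq2 left 263 higher and 120 lower genes.

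**Figure D1:**
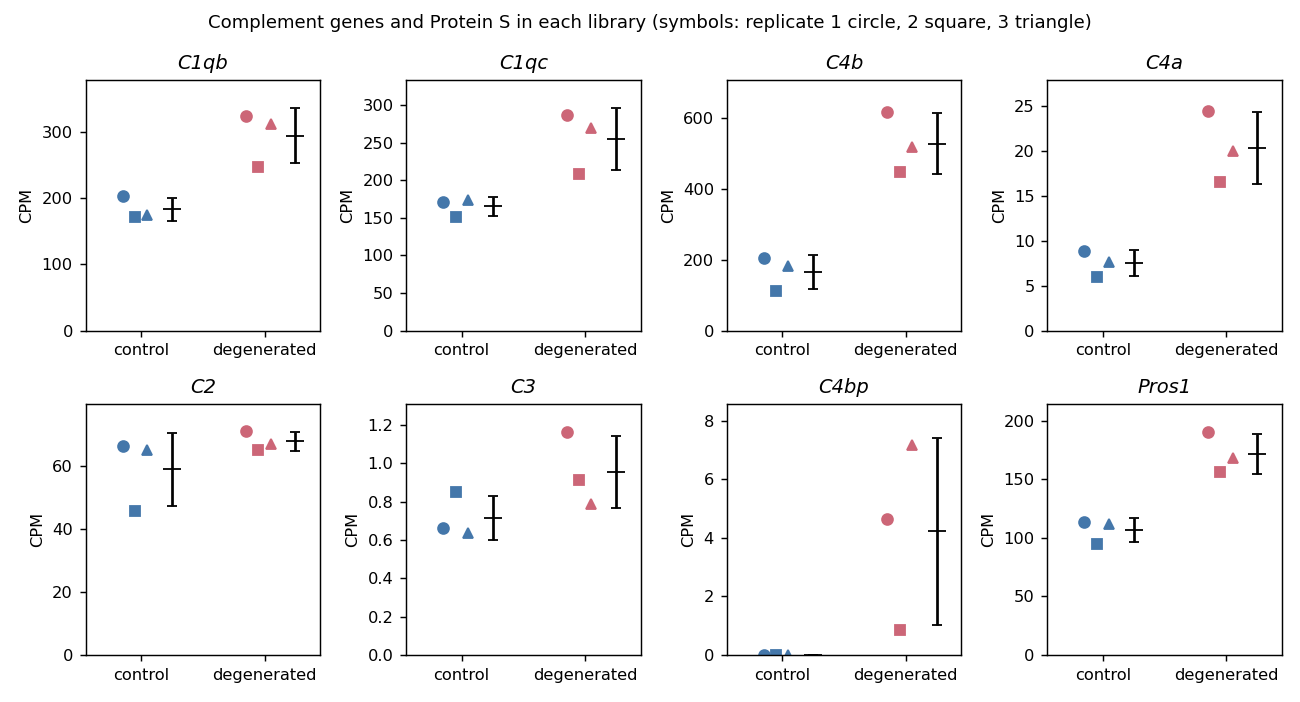
Level in CPM (vertical axes, from 0, each gene on its own scale) of the 8 genes with a row in each of the 3 control (blue) and 3 degenerated (red) libraries, with bars for the mean ± SD of a group. The groups lie apart in C1qb, C1qc, C4b, C4a, C4bp and Pros1 and overlap in C2 and C3, and C4bp has 0 counts in all 3 control libraries.

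C1qb and C1qc encode the B and C chains of C1q, the recognition protein of the pathway. Both genes lie beside C1qa on the minus strand of chromosome 4, C1qb (ENSMUSG00000036905) at 136880129 to 136886187 and C1qc (ENSMUSG00000036896) at 136889804 to 136893065 in GRCm38. C1qb stood at 203, 171 and 175 CPM in control and 324, 247 and 311 CPM in degenerated replicates 1, 2 and 3. The lowest degenerated library, replicate 2, was still above the highest control library, replicate 1. The means were 183 ± 17.4 and 294 ± 41.4 CPM (SD, n = 3 each), and the log2FC was 0.69 with an SE of 0.14.

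C1qc followed the same order of degenerated libraries. It stood at 172, 151 and 173 CPM in control and 287, 209 and 269 CPM in degenerated replicates 1, 2 and 3, and the groups did not overlap. Its means were 165 ± 12.6 and 255 ± 41.1 CPM (SD, n = 3 each), with a log2FC of 0.63 (SE 0.15). Both genes are carried here by 1 listed transcript each, and per kilobase of transcript C1qb exceeded C1qc by a ratio of 1.31, 1.26 and 1.11 in control and 1.25, 1.31 and 1.28 in degenerated replicates 1, 2 and 3. The ratio of both chains thus overlapped between the groups.

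The C1q values moved with single libraries. Without degenerated replicate 1, the log2FC of C1qb was 0.60 and that of C1qc 0.52, and neither met the criteria. C1qb also did not meet them without control replicate 2 or 3 or degenerated replicate 3 (0.64 to 0.65), nor did C1qc without control replicate 1, 2 or 3 or degenerated replicate 3 (0.56 to 0.65). Both log2FC stayed above 0.5 in each of these fits.

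Macrophage markers were read beside C1q. Of 15 markers listed for macrophages, 10 had a row and 8 passed the filter on low counts, of which 4 had a log2FC above 0 and 4 below (median 0.09). None met the criteria in edgeR's test. Fcgr1, an Fc receptor of macrophages, had the only unadjusted p under 0.05 (17.1, 14.8 and 20.0 CPM in control and 26.5, 25.0 and 31.8 CPM in degenerated replicates 1, 2 and 3, log2FC 0.68, SE 0.22, adjusted p 0.421 in edgeR), and it met the criteria in DESeq2. The defining markers Csf1r, Adgre1 and Trem2 had no row, Fcrls was at 1 count in all, and Aif1 stood at 15.1, 0.0707 and 16.2 CPM in control and 0.137, 0 and 0 CPM in degenerated replicates 1, 2 and 3.

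The summed level of the macrophage list was 1035, 3011 and 2723 CPM in control and 1919, 1771 and 3165 CPM in degenerated replicates 1, 2 and 3, with 37.3% to 72.1% of it from Lyz2, a lysozyme gene that neutrophils also express. Without Lyz2 the sums were 649, 847 and 782 CPM in control and 836, 671 and 883 CPM in degenerated libraries, which overlap. The sum of C1qb and C1qc was 374, 321 and 348 CPM in control and 611, 456 and 581 CPM in degenerated libraries, which do not. Relative to the list without Lyz2, C1qb plus C1qc was 0.577, 0.380 and 0.444 in control and 0.731, 0.679 and 0.658 in degenerated replicates 1, 2 and 3. With Lyz2 these ratios overlapped (0.107 to 0.362 in control and 0.183 to 0.319 in degenerated libraries). The part that the number of macrophages had in the C1q values was not tested.

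**Figure D2:**
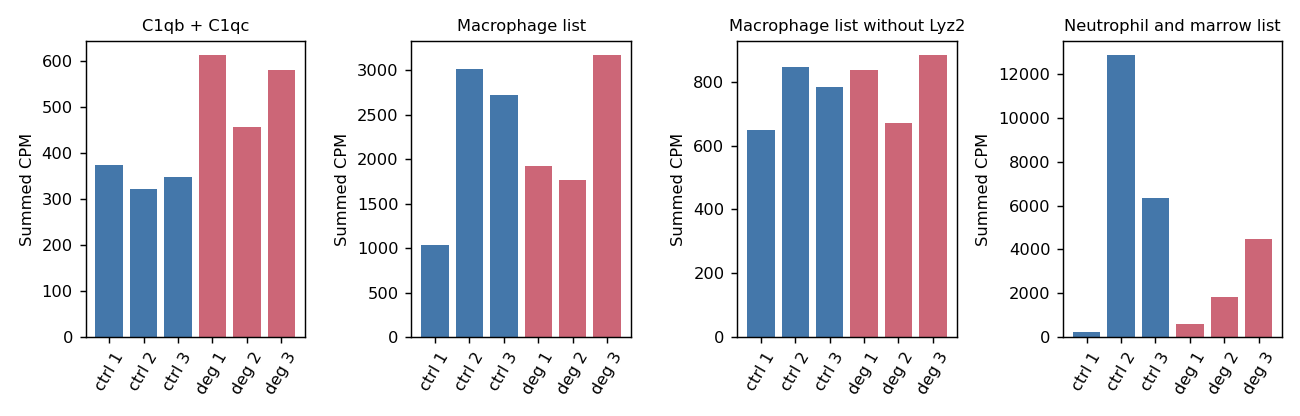
Summed CPM (vertical axes, from 0) per library of C1qb plus C1qc, of the macrophage list with and without Lyz2, and of the neutrophil and marrow list, in control (ctrl, blue) and degenerated (deg, red) replicates 1 to 3. The C1q sums of 321 to 374 CPM in controls lie below the 456 to 611 CPM of degenerated libraries, whereas the sums of the other lists overlap between the groups.

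Among the 7 genes with counts in both groups, C4b had the largest difference. C4b encodes complement C4, whose larger fragment binds covalently to targets and forms part of the enzyme that cuts C3. It lies on chromosome 17 at 34728380 to 34743882 (ENSMUSG00000073418, minus strand, GRCm38). C4b stood at 204, 112 and 181 CPM in control and 618, 447 and 517 CPM in degenerated replicates 1, 2 and 3. Every degenerated library was more than 200 CPM above the highest control library, and control replicate 2 was the lowest of all. The means were 166 ± 48.2 and 527 ± 85.6 CPM (SD, n = 3 each), 3.18 times apart, and the log2FC was 1.67 (SE 0.26).

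C4a, which encodes the C4-like sex-limited protein, lies at 34809092 to 34823464 of the same chromosome (ENSMUSG00000015451, minus strand). It stood at 8.87, 6.01 and 7.59 CPM in control and 24.5, 16.6 and 20.0 CPM in degenerated replicates 1, 2 and 3, a log2FC of 1.44 (SE 0.28). The order of the 6 libraries was the same as in C4b, and the groups did not overlap. The share of C4b in the counts of both genes was 95.8%, 94.9% and 96.0% in control and 96.2%, 96.4% and 96.3% in degenerated replicates 1, 2 and 3. The exact 95% binomial intervals (Clopper-Pearson) of these shares reached from 93.7% to 96.9% over all libraries and cover counting error only. As 96.1% of aligned bases are identical between their transcripts, the C4a values are uncertain, and the part of C4b reads in them was not tested. With both genes added to 1 row, the log2FC was 1.66.

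The ratio of C4b to C1qb per kilobase was 0.215, 0.137 and 0.225 in control and 0.406, 0.383 and 0.351 in degenerated replicates 1, 2 and 3, and it did not overlap between the groups. Astrocytes, Schwann cells and fibroblasts are among the cells known to make C4 outside the liver. Schwann cell markers summed to 9801, 5535 and 6609 CPM in control and 7729, 7115 and 4900 CPM in degenerated replicates 1, 2 and 3, and fibroblast markers to 1938, 1781 and 1514 CPM in control and 1391, 1138 and 1567 CPM in degenerated replicates. The part of these cells in the C4b values was not tested.

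C2, the serine protease that joins the C4 fragment in the enzyme that cuts C3, did not meet the criteria. It lies at 34862604 to 34898265 on chromosome 17 (ENSMUSG00000024371, minus strand). C2 stood at 66.3, 45.6 and 65.0 CPM in control and 71.2, 65.2 and 67.2 CPM in degenerated replicates 1, 2 and 3. Degenerated replicate 2 was within the range of the controls, which control replicate 2 widened downwards. The log2FC was 0.20 (SE 0.18) and fell to 0.05 without control replicate 2. C2 shares 19439 bases of its span with Gm20547 on the same strand (0, 3 and 2 counts in control and 40, 10 and 11 in degenerated replicates). It shares 17385 bases with Zbtb12 on the opposite strand (194 to 315 counts). Reads in exons shared with Zbtb12 cannot be told apart where strand is not known. Strand does not separate reads in exons shared with Gm20547.

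C3, the central component on which all pathways meet, was seen through 1 of its 4 annotated transcripts only, the processed transcript C3-202. It lies at 57203970 to 57228136 on chromosome 17 (ENSMUSG00000024164, minus strand). The counts were 10, 12 and 10 in control and 17, 13 and 10 in degenerated replicates 1, 2 and 3, or 0.638 to 0.849 against 0.789 to 1.16 CPM. The groups overlapped, and the log2FC was 0.42 with an SE of 0.40, so a difference of this size was not detectable at this depth. The 3 coding transcripts of C3 are not analysed here, and these counts do not stand for the level of C3.

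C4bp encodes the alpha chain of C4b-binding protein, a regulator that binds the C4 fragment and aids its breakdown. It lies on chromosome 1 at 130634773 to 130661632 (ENSMUSG00000026405, minus strand). C4bp had 0 counts in each control library and 68, 12 and 91 counts in degenerated replicates 1, 2 and 3, which is 4.65, 0.845 and 7.18 CPM. Against a floor of 3 counts over the control group (0.0668 CPM), the pooled 171 counts of the degenerated group correspond to a 61.7-fold higher level. This ratio takes the 171 counts as exact. It does not cover the spread between degenerated libraries (0.845 to 7.18 CPM) and is not a lower bound. Degenerated replicate 2 held few of these counts, and without degenerated replicate 1 or 3 C4bp did not meet the criteria. The liver is the known main source of C4bp. Of 8 hepatocyte markers, 7 had a row and none passed the filter on low counts, and their summed level was 0.993, 0.141 and 0.510 CPM in control and 1.64, 13.9 and 0.868 CPM in degenerated replicates 1, 2 and 3. The part of liver RNA in the C4bp values was not tested. The pseudogene C4bp-ps1 shares no stretch of 50 bases with C4bp-201. Of the 15294 transcripts with at least 100 counts in 1 library, 1876 (12.3%) had 0 counts in another. Among genes with at least 100 counts in 1 library the share was 2.60%. C4bp had at most 91 counts in a library and is in neither set. Both shares count a 0 in any library, not in all 3 controls. The part of such on and off counts in the C4bp values was not tested.

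Protein S, the product of Pros1, is a vitamin K-dependent plasma protein that serves activated protein C as a cofactor and is a ligand of the receptors Tyro3 and Mertk on phagocytes. Pros1 lies on chromosome 16 at 62854307 to 62929346 (ENSMUSG00000022912, plus strand). It stood at 114, 95.1 and 112 CPM in control and 190, 156 and 168 CPM in degenerated replicates 1, 2 and 3. The lowest degenerated library, replicate 2, lay above all 3 controls. The means were 107 ± 10.4 and 172 ± 17.2 CPM (SD, n = 3 each), and the log2FC was 0.68 (SE 0.13). With each of the 6 libraries left out in turn, the log2FC of Pros1 was 0.59 to 0.73, that of C4a 1.28 to 1.57 and that of C4b 1.45 to 1.84, beside 0.60 to 0.79 in C1qb and 0.52 to 0.74 in C1qc. The ratio of Pros1 to C1qb per kilobase was 0.185, 0.183 and 0.212 in control and 0.193, 0.209 and 0.178 in degenerated replicates, and overlapped between the groups.

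Levels of different genes, other than C3, were compared per kilobase of listed transcript. In controls the mean order was C1qb (168 CPM per kilobase), C1qc (137), C4b (32.5), Pros1 (32.4), C2 (24.4), C4a (2.81) and C4bp (0). C4b and Pros1, and C4b and C2, overlapped over the control libraries. In degenerated libraries the order was the same, with C1qb at 270, C1qc at 212, C4b at 103, Pros1 at 52.0, C2 at 27.4, C4a at 5.14 and C4bp at 1.39 CPM per kilobase. C4b (86.8 to 121) then lay above Pros1 (47.3 to 57.6) in all libraries, while C1qb and C1qc overlapped. Counts per kilobase were added over the listed transcripts of a gene. In C4a, a count of the retained intron C4a-206 (526 bases) thus weighed more than a count of C4a-207 (5371 bases). C4a-206 had 5, 14 and 18 counts in control and 9, 17 and 6 in degenerated replicates 1, 2 and 3.

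The differences were also read within the 3 libraries poorer and the 3 richer in marrow transcripts. Marrow levels still differed within each side. They were 245 CPM in control against 581 and 1831 CPM in degenerated libraries on the poorer side, and 12858 and 6367 against 4488 CPM on the richer. In the 3 libraries poor in marrow transcripts (1 control, 2 degenerated), the log2 ratio of mean CPM was 0.49 for C1qb, 0.53 for C1qc, 1.21 for C4a, 1.38 for C4b and 0.61 for Pros1. In the 3 libraries rich in them (2 control, 1 degenerated), it was 0.85, 0.73, 1.56, 1.82 and 0.70 for the same genes. The ratios of C2 were 0.04 and 0.28 and those of C3 0.65 and 0.09. Each side of the split rests on 1 library of a group, and the part of marrow content in the differences was not tested by these ratios. With a term for this split in the fit, an alternative chosen after the data were seen, 4 of the 8 genes met the criteria, with a log2FC of 0.67 in C1qb, 1.38 in C4a, 1.60 in C4b and 0.65 in Pros1, and C1qc (0.63) and C4bp did not. Of the 14118 genes tested, 235 met them as higher in that fit and 144 as lower.

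Transcript by transcript, 10 of the 15 listed transcripts passed the filter, and 4 met the criteria as higher (C1qb-201, C4b-201, C4bp-201 and Pros1-201), where 1.14% of the 26065 transcripts tested did, and none as lower, where 0.652% did. Of the 10 that passed, the groups did not overlap in 7, all higher, against 9.13% of all transcripts tested. C1qc-201 (log2FC 0.59, SE 0.16) and C4a-207 did not meet the criteria in this fit, although C1qc and C4a did in the fit of genes. C1qc-201 is the only listed transcript of C1qc, so its counts are those of the gene. C4bp-201, with 0 counts in the controls, passed the filter only through the degenerated libraries. As with the genes, nothing is read from these counts. C4b-201, the coding transcript, held 98.8% to 99.4% of the counts of C4b, with 3060, 1569 and 2801 counts in control and 8950, 6305 and 6505 in degenerated replicates 1, 2 and 3 (log2FC 1.63, SE 0.26). C4b-202, which is annotated as a target of nonsense-mediated decay, had 27, 9 and 34 counts in control and 79, 46 and 47 in degenerated replicates (log2FC 1.38, SE 0.54), so both transcripts of C4b had a difference of the same sign.

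The 4 listed transcripts of C4a are all annotated without a coding sequence. C4a-207 had 129, 71 and 101 counts in control and 323, 176 and 248 in degenerated replicates 1, 2 and 3 (log2FC 1.39, SE 0.38), and its groups did not overlap. C4a-206, a retained intron, had 5, 14 and 18 counts in control and 9, 17 and 6 in degenerated replicates (log2FC -0.15, SE 0.64). C4a-203 had 26 counts in degenerated replicate 1 only and C4a-205 had 42 in degenerated replicate 2 only. In C2, the coding transcript C2-201 had 969, 628 and 1009 counts in control and 1030, 904 and 706 in degenerated replicates (log2FC 0.09, SE 0.21), while another coding transcript, C2-206, had 141 counts in degenerated replicate 3 and at most 1 in any other library. The C2 value of degenerated replicate 3 thus held a transcript that was hardly counted in the other libraries.

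**Figure D3:**
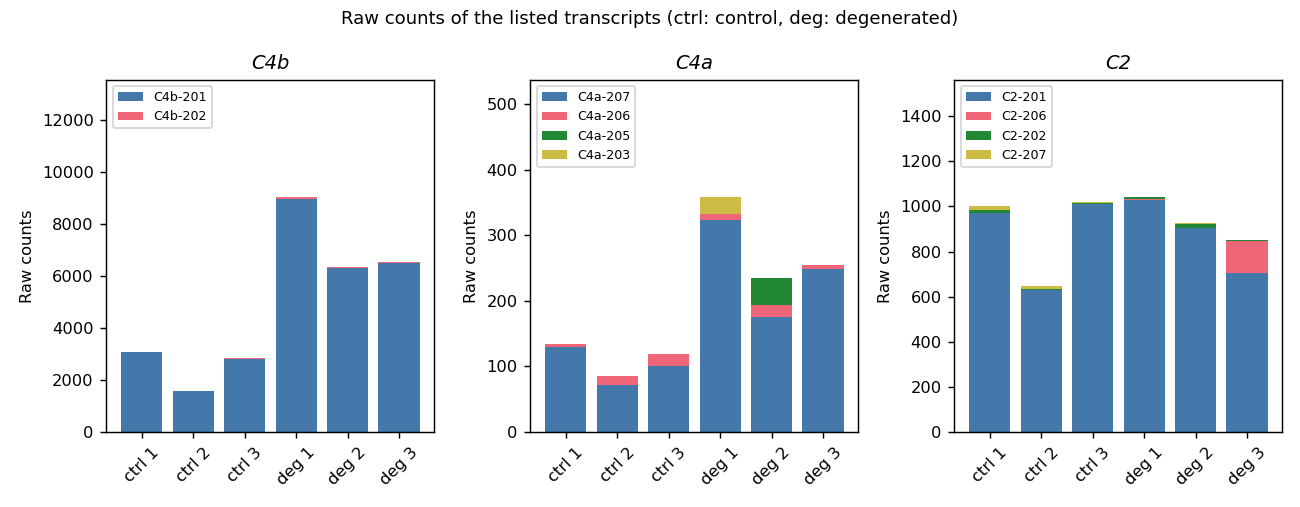
Raw counts (vertical axes, from 0) of the listed transcripts of C4b, C4a and C2, stacked, in control (ctrl) and degenerated (deg) replicates 1 to 3. C4b-201 and C4a-207 make up most of their genes' counts and are higher in each degenerated library, and C2-206 appears with 141 counts in degenerated replicate 3.

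Other genes of the complement system and of Protein S were taken from a list of 64, of which 51 had a row and 35 passed the filter. These were read from the same fit across all genes, and 1 of the 35 met the criteria as higher and 0 as lower in edgeR's test, against 2.01% and 0.715% of all genes. At an unadjusted p under 0.05, edgeR had 2 higher and 2 lower genes, beside 859 and 508 of all genes. By the criteria, DESeq2 called 2 higher (Axl and Clu) and 0 lower, beside 479 and 306 of all genes. Of the 35 genes, 17 had a log2FC above 0 and 18 below, with a median of -0.03. By role, 3 of 6 initiation genes, 0 of 2 alternative pathway genes, 0 of 1 terminal pathway genes, 4 of 6 fluid regulators, 4 of 9 membrane regulators, 3 of 6 receptors and 3 of 5 partners of Protein S had a log2FC above 0.

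Axl, a receptor tyrosine kinase of the family that Protein S and Gas6 bind, was the gene that met the criteria. It stood at 192, 199 and 177 CPM in control and 268, 227 and 267 CPM in degenerated replicates 1, 2 and 3, and the groups did not overlap. The log2FC was 0.42 (SE 0.11, unadjusted p 0.00868 and adjusted p 0.361 in edgeR). It no longer met the criteria in 10 of 13 alternatives, in which the unadjusted p was 0.0109 to 0.0415 at a log2FC of 0.37 to 0.46. Mertk and Tyro3, the receptors of Protein S, had a log2FC of 0.08 (SE 0.25) and -0.89 (SE 1.23).

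The genes that follow were chosen after their values were seen. Gas6, the other ligand of these receptors, stood at 359, 444 and 412 CPM in control and 314, 330 and 331 CPM in degenerated replicates 1, 2 and 3, with a log2FC of -0.32 (SE 0.11, adjusted p 0.451 in edgeR). Its groups did not overlap, and it was lower where Pros1 was higher. Clu, which encodes clusterin, an inhibitor of the terminal complex, stood at 84.4, 39.3 and 48.2 CPM in control and 90.8, 195 and 123 CPM in degenerated replicates (log2FC 1.25, SE 0.40, adjusted p 0.421 in edgeR). Susd4, a membrane inhibitor of complement, stood at 261, 213 and 199 CPM in control and 149, 195 and 134 CPM in degenerated replicates (log2FC -0.49, SE 0.18, adjusted p 0.480 in edgeR). None of the 3 met the criteria in edgeR's test, while Clu did in DESeq2 (log2FC 1.24). Serping1, the inhibitor of the C1 proteases, had a log2FC of 0.43 (SE 0.21), and C1s1, a C1 protease, of 0.48 (SE 0.57), and their groups overlapped.

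The pathway beyond C3 was thinly counted in the listed transcripts. The terminal genes C6 and C8b were at 0 counts in all 6 libraries, Hc, the gene of C5, had 7 counts and C8a had 2 in all, and C7 and C9 had no row. C8g, the 1 terminal gene that passed the filter, stood at 3.45 to 5.20 CPM over all libraries (log2FC -0.08, SE 0.33). Among starters of the lectin pathway, Masp2 and Mbl1 were at 0 counts, while Masp1 stood at 5.36 to 7.36 CPM in control and 8.10 to 11.0 CPM in degenerated libraries (log2FC 0.54, SE 0.28, adjusted p 0.599 in edgeR). A count of 0 allows up to 3 counts in a library. The listed transcripts were 1 of 5 for C6, 1 of 3 for C8b, 3 of 4 for C8a and 4 of 5 for Hc. For Masp2 they were 1 of 4 and for Mbl1 1 of 2. These counts thus do not stand for the levels of these genes. C1ra and C1rb had no row and are not analysed here.

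**Figure D4:**
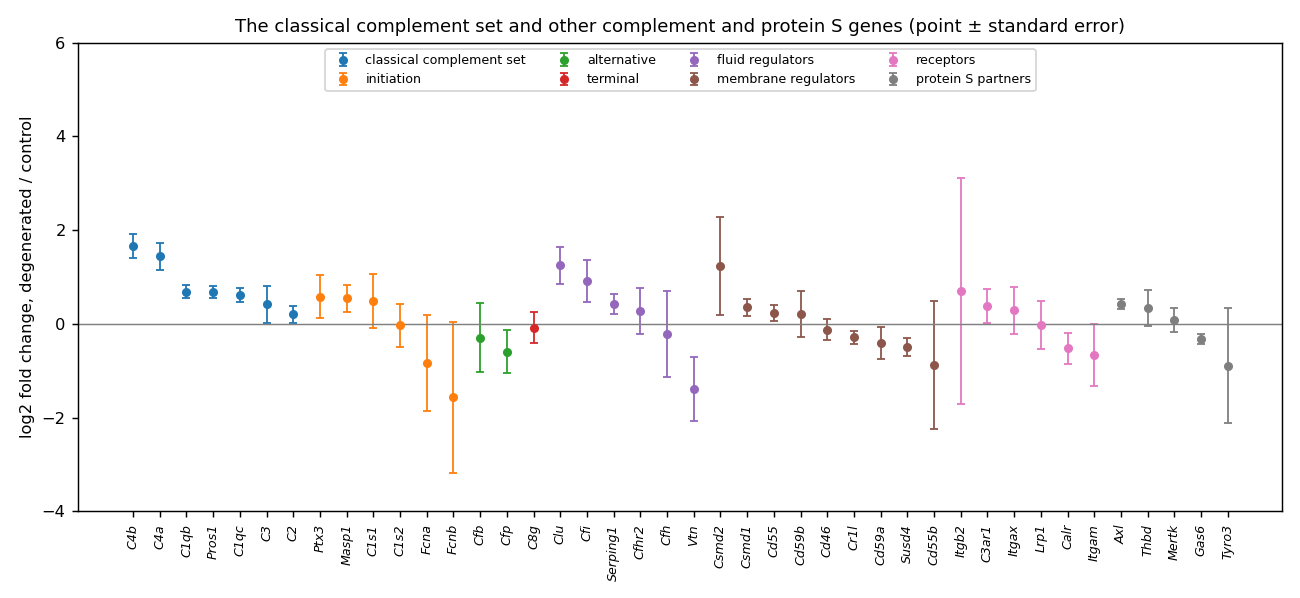
The log2 fold change, degenerated over control (vertical axis, points with bars of 1 standard error), of 7 genes of the classical complement set and of 35 other complement and Protein S genes, coloured by role. C4bp is left out because its control counts are 0. All 7 points of the set are above 0, from 0.20 in C2 to 1.67 in C4b, and the other genes lie on both sides of 0.

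Genes with the most similar profile were looked up by the root mean square (RMS) difference of log2(CPM + 1), centred on its mean over the 6 libraries, among the genes that passed the filter. The 5 nearest to the mean of C1qb and C1qc were Gm44524 (0.072), Sept2 (0.089), Btbd16 (0.091), Dock4 (0.093) and 2700081O15Rik (0.094). Pros1 itself was at 0.081, between the first and the second of them. Sept2 encodes a septin and Dock4 an activator of Rac, and Dock4 stood at 41.6, 38.8 and 39.2 CPM in control and 71.6, 60.2 and 63.2 CPM in degenerated replicates 1, 2 and 3. Gm44524 was at 0.255 to 0.463 CPM in control and 0.704 to 1.18 CPM in degenerated libraries, where the added 1 flattens a profile.

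Of the 5 nearest to C4b, those reported here are Ndst3 (0.214), Nos1 (0.227), Cep41 (0.261) and Gap43 (0.272), and C4a stood at 0.226. Gap43, a protein of growing axons, was at 7.61, 4.74 and 5.74 CPM in control and 32.6, 14.4 and 27.9 CPM in degenerated replicates 1, 2 and 3. Nos1, the neuronal nitric oxide synthase, was at 127, 70.0 and 99.5 CPM in control and 289, 191 and 332 CPM in degenerated replicates. Both had the lowest control value in replicate 2, as C4b had. The profiles share their libraries and the split of groups, and the likeness is a description.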

How the data were processed

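The authors aligned the reads with Hisat2 and evaluated expression with StringTie by the methods of the study, whereas the submitters' processing notes name Bowtie 0.12.2 and the builds mm8 and mm10. No source used here gives the counting step or its use of strand. The authors deposited raw counts per Ensembl transcript, not normalized, for 65535 transcripts, so the totals of 12480876 to 15549319 cover listed transcripts only. The number of rows matches the size limit of older spreadsheets, so a gene without a row here is not shown to lack counts. The design had assumed counts per gene. Transcripts were therefore matched to GENCODE M21 of GRCm38 (65272, or 99.6%), and their counts added per gene. The 263 others, with 0.125% of counts, were left out.

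Groups and replicate numbers came from the labels. Genes and transcripts were fitted in R 4.3.3 by edgeR 4.0.16 (TMM normalization, filterByExpr, robust quasi-likelihood F test, 3 against 3, no covariates), and the SE is the log2FC over the square root of F. Benjamini-Hochberg adjustment ran over all genes tested. The steps were tested on simulated data. Alternatives were DESeq2 1.42.0, RLE normalization, no filter or a mean count of at least 10, the replicate number as a block, each library left out, 1 transcript per gene, C4a and C4b added, and, chosen after the data were seen, a marrow term and the macrophage list without Lyz2. Sequences were compared with Biopython 1.88.

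The genes, lists and motif letters were chosen with earlier results of these data known. Named were the 9 genes, other listed complement genes that met the criteria, the 5 nearest profiles to C1q (C1qb and C1qc, as C1qa has no row) and to C4b, of which 1 is not reported here, and markers that a result turns on. Others were chosen after their values were seen.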

Additional observations from a re-analysis of the deposited data

How the results depend on the processing

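The log2FC of C1qb, C1qc, C2, C3, C4a, C4b and Pros1 was above 0 under every alternative run, and the share of C4b in C4a plus C4b counts, a mean of 95.9% over the 6 libraries, was 95.8% to 96.1% with each library left out. DESeq2 called 479 genes higher and 306 lower against 284 and 101, 657 transcripts higher and 555 lower against 296 and 170, and 2 other complement genes higher against 1. With each library left out, genes called higher numbered 144 (without degenerated replicate 2) to 339 and genes called lower 76 to 158 (without control replicate 1). The higher calls numbered 171 and 185 when control replicate 3 or 2 was dropped, and 179 when degenerated replicate 3 was. Of the 8 complement genes with a row, 3 to 6 met the criteria, with 3 without degenerated replicate 1 or 3, where C1qb, C1qc and C4bp were lost. Other complement genes called higher were 0 to 1 and lower 0 to 1 (Gas6 without control replicate 1, Susd4 without degenerated replicate 2). The call of Axl was also lost, leaving 0, with RLE normalization, no filter on low counts, 1 transcript per gene and the marrow term, under which Susd4 made 1 lower call. With 1 transcript per gene, 2700081O15Rik reversed to a log2FC of -0.22 (edgeR, unadjusted p 0.516), and the log2FC moved from 0.71 to 0.38 in Dock4, from 1.51 to 3.22 in Ndst3 and from 2.03 to 4.87 in Cep41, with Dock4, Ndst3 and Nos1 (1.74) no longer meeting the criteria. The cause was not tested.

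Whether the replicate numbers pair the samples was not settled. Deviations from the group means of same-numbered libraries correlated at 0.16, -0.09 and 0.067 over genes for replicates 1, 2 and 3. Control replicates 1 and 3 correlated best with the degenerated library of their own number, and control replicate 2 with degenerated replicate 3 (0.235). Correlations this weak cannot decide on pairing. With the replicate block, 160 genes were called higher and 58 lower, 138 transcripts higher and 83 lower, and 0 other complement genes higher.

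Depth limits C3, seen through 10 to 17 counts in a library, and the C4bp ratio, which rests on 171 counts. Genes whose transcripts are listed in part are known in part only.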

Other observations

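Several other immune genes were counted in some libraries and at 0 in others, given as values with no explanation and chosen after they were seen. Itgb2, the beta chain of complement receptor 3, had 243 counts of its transcript Itgb2-204 in control replicate 2, 212 in degenerated replicate 2 and 163 in degenerated replicate 3, and 0 in the 3 other libraries. C5ar1, the receptor of the C5 fragment, had 117 counts of C5ar1-201 in degenerated replicate 1, 1 in degenerated replicate 3 and 0 elsewhere. Cfd, the protease factor D of the alternative pathway, had 226, 5 and 1 counts of Cfd-202 in control replicates 1, 2 and 3 and 0 in the degenerated libraries. Aif1-201, a transcript of a macrophage marker, had 225 and 211 counts in control replicates 1 and 3 and 0 in the 4 other libraries. Among genes with at least 100 counts in 1 library, 2.60% of 10401 were at 0 in another.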
